A study of Mus musculus with 6 samples.

Results

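The 52 genes described here encode the machinery that copies DNA and the proteins that supply and time S phase: origin licensing (10 genes), helicase activation (6), DNA polymerases and primase (9), the sliding clamp with its loader and Okazaki fragment maturation (8), single-strand DNA binding (3), nucleotide supply and uracil removal (6), chromatin assembly and histone mRNA (3), cyclin E and E2F factors (4), and fork checkpoint and Cdt1 turnover (3). They were chosen by name from 53618 named rows of the table, and all 52 were detected and passed the filter on low values. Bulk RNA-seq was performed on GFP+Lin−c-Kit+ splenocytes from mice carrying AE9a leukemia that was Usp18+/f and held a tamoxifen-inducible Cre (ER-Cre), sorted 3 days after the first injection. AE9a is a truncated AML1-ETO fusion oncoprotein that was introduced by a GFP-marked retrovirus into mouse fetal liver cells, and the leukemia was propagated by transplantation into irradiated recipients. Mice with established disease were injected with oil, leaving the cells Usp18+/f, or with tamoxifen, which activates the Cre recombinase so that the floxed Usp18 allele is lost and the cells become Usp18+/Δ. Each group held 3 mice with 1 library per mouse, and p-values measure the spread between these mice. The oil group received no tamoxifen, and the effects of the drug and of the Usp18 deletion cannot be told apart in this design. The comparison asks whether the transcripts of the replication machinery differ between the Usp18+/f and Usp18+/Δ leukemia cells.

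Replication begins when the origin recognition complex, Cdc6 and Cdt1 load rings of the Mcm proteins onto DNA in G1. At the start of S phase, cyclin-dependent and Dbf4-dependent kinases recruit Cdc45 and GINS to the rings, which become the active helicase, and polymerases alpha, delta and epsilon copy both strands with the help of the Pcna clamp. Many of these genes are transcribed in late G1 under the control of E2F factors, and their transcripts are commonly used as a readout of cycling cells in leukemia. In bulk RNA, fewer cells in S phase and less RNA per cell cannot be told apart.

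Values are normalized counts, in which the reads of each gene were scaled by the size factor of the library, and they are listed in the order 1, 2, 3 of each group. The libraries held 19172471 to 23785143 reads. Usp18 itself went against the labels, at 217, 214 and 176 in oil and at the higher levels of 477, 329 and 284 in tamoxifen, so directions below are between labelled libraries; its reads were counted over the whole gene and do not separate a deleted from an intact allele. The library labelled tamoxifen 1 stood apart. Its median correlation with the others was 0.913 (0.981 to 0.990 for the other libraries), its mitochondrial share was 0.00923% (1.01% to 1.56%), and each comparison is therefore given with and without it. The progenitor markers Kit, Gata2, Runx1 and Myb were at 3097 or more in every library, whereas Mpo and Elane, enzymes of granulocyte precursors, were at 20.2 or less and higher in every tamoxifen library (Mpo 6.39 to 20.2, Elane 10.003 to 11.1) than in every oil library (Mpo 0 to 4.64, Elane 0 to 1.86). For the other enzymes of these precursors in the list the groups overlapped, with Prtn3 at 6.50 to 31.4 in oil and 13.1 to 24.3 in tamoxifen and Ctsg at 51.1 to 90.1 in oil and 75.8 to 188 in tamoxifen. Of the markers of other lineages, the 8 of T and NK cells summed to 0.898 to 2.89 in oil and 0.909 to 6.39 in tamoxifen, most of it Trac, with Cd3e at 0 in every library. The 6 neutrophil markers summed to 10.8 to 23.2 in oil and to 26.4 to 39.6 in tamoxifen, without overlap and with Ly6g at 0. Of the others, Ngp, Camp and Ltf were higher in every tamoxifen library than in every oil library, Cxcr2 was at 3.03 or less throughout, and Mmp8 had 8.98 to 19.3 in oil and 0 to 13.6 in tamoxifen. Cd79b, a B cell marker, was at 0.929 to 2.89 in oil and at 5.05 to 16.6 in tamoxifen. The 8 macrophage markers summed to 59.4 to 142 in oil and 160 to 248 in tamoxifen with Vsig4 at 0, and the 6 erythroid markers summed to 48454 to 67643 in oil and 53253 to 85489 in tamoxifen. The part of these cells in the results below was not tested.

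The promoters are shown first because they hold a sequence feature that the choice of genes did not use. RefSeq promoters (250 bases before to 50 bases after each gene start, GRCm38.p6) were matched for 43 of the 52 genes. The E2F letters TTTCCCGC, TTTCGCGC, TTTGCCGC or TTTGGCGC, searched on both strands, occurred in 17 of the 43 (39.5%), against 4.87% of the 9020 expressed genes with a promoter and 2.61% of all genes in the table of promoters. The CHR letters TTTGAA occurred in 6 (14.0%), close to the 14.4% of expressed genes, and CCAAT occurred in 26 (60.5%) against 43.2%. Among 26 mitosis genes with a promoter the order was the opposite, with E2F letters in 1 (3.85%) and CHR letters in 18 (69.2%). A match is a description of the sequence and not a measured binding site. Below are the 160 bases upstream of the start for licensing, helicase, clamp loader and checkpoint genes with E2F letters in this stretch, for Ccne1, which has none, and for the mitotic kinesin gene Kif11 as the contrast. Capitals mark E2F letters, or CHR letters in Kif11.
Mcm5 (chr8:75109349-75109508, plus strand): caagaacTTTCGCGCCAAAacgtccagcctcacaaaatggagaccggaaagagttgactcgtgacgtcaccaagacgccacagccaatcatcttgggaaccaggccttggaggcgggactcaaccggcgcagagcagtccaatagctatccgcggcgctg
Mcm6 (chr1:128359706-128359865, minus strand): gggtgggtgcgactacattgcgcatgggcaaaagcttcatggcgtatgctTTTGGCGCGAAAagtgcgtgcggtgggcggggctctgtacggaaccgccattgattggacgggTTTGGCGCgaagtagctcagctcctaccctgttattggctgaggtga
Cdc6 (chr11:98907991-98908150, plus strand): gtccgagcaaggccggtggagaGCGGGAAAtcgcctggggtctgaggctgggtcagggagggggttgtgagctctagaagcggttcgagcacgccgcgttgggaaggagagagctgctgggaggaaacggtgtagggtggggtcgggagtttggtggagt
Orc1 (chr4:108579294-108579453, plus strand): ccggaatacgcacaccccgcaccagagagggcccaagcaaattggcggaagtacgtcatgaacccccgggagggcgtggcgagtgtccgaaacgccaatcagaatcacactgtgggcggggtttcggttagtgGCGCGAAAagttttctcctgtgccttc
Gins3 (chr8:95633399-95633558, plus strand): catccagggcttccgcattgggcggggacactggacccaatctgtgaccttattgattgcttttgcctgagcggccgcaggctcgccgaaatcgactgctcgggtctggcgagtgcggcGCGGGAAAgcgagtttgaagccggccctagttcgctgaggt
Rfc3 (chr5:151651209-151651368, minus strand): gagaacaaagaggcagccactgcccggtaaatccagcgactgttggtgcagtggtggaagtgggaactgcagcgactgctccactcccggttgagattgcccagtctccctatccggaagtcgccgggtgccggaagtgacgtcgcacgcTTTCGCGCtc
Dtl (chr1:191575545-191575704, minus strand): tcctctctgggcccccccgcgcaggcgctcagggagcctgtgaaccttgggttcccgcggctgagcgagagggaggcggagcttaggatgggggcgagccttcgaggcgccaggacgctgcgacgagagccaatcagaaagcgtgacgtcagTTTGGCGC
Ccne1 (chr7:38107491-38107650, minus strand): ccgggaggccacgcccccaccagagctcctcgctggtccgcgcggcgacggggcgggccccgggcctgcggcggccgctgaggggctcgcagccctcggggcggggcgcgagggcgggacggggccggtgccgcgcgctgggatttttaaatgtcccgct
Kif11 (chr19:37376222-37376381, plus strand): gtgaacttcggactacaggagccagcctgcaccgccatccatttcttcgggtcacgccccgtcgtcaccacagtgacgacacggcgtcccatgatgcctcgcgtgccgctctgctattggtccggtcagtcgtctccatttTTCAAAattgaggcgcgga

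The pair of matches in Mcm5 overlapped on opposite strands within a single stretch, as did the first pair in Mcm6, which had a further match closer to the start. Rfc3 and Dtl carried their match within 10 bases of the start. The absence of these letters in the Ccne1 stretch says only that they are not in this window.

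**Figure D1:**
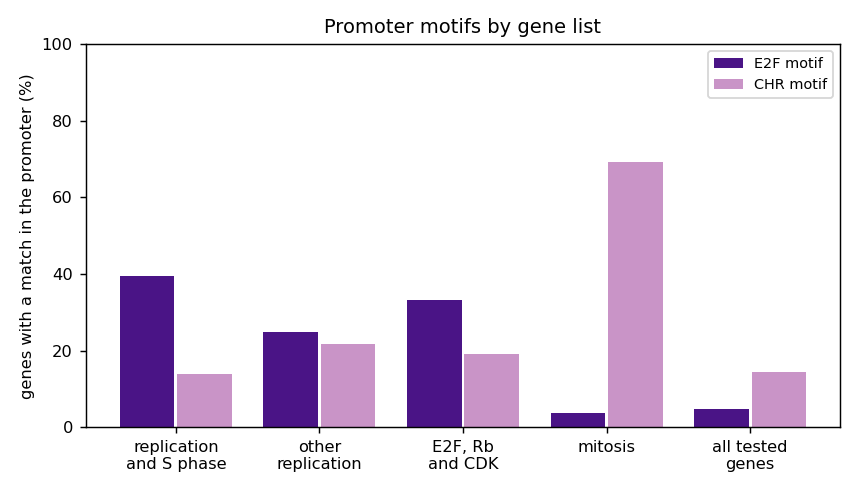
Percentage of genes with E2F or CHR letters in the RefSeq promoter, for the replication and S phase genes and the other lists. E2F letters were found in 39.5% of replication and S phase genes and in 3.85% of mitosis genes, and CHR letters in 14.0% and 69.2%.

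None of the 52 genes passed the test between oil and tamoxifen. With all 6 libraries, limma gave 0 genes of the group at an adjusted p under 0.05 (0% of the 12298 tested genes) and 0 at an unadjusted p under 0.05 (4.47% of tested genes), and the smallest adjusted p in the group was 0.666. edgeR on recovered reads gave 0 at the adjusted (0 of all the genes it tested) and 0 at the unadjusted threshold (4.81%). DESeq2 gave 0 at the adjusted (0.464% of the genes with a value) and 1, Ung, at the unadjusted threshold (3.65%). The log2 fold change was above 0 for 22 genes and below 0 for 30, beside 5958 and 6340 of all tested genes. The median log2 fold change of the group was -0.056, beside -0.017 over all tested genes. Its sign was not stable, since it was 0.012 with upper-quartile scaling (0.051 over all tested genes), 0.027 with the GC correction, 0.036 without oil 3 and 0.042 without tamoxifen 3. The medians of the roles ran from -0.34 (fork checkpoint and Cdt1 turnover) to 0.34 (cyclin E and E2F). The extremes were -0.97 for Rpa3 and 0.74 for Ung. Oil and tamoxifen libraries did not overlap in 1 gene, Ccne1, whereas 17.6% of tested genes had groups that did not overlap.

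Without tamoxifen 1, the 5 remaining libraries bounded the difference more closely. Again 0 genes of the group passed at an adjusted p under 0.05 (0.333% of tested genes, 41 genes), and 1, Ccne1, had an unadjusted p under 0.05 (12.1% of tested genes). edgeR on the 5 libraries gave 0 (0.364% of its genes) and 1, also Ccne1 (1526 of its 12628 genes). DESeq2 gave 0 (1.82% of the genes with an adjusted value) and 0 (1269 of its 23788 genes). The median log2 fold change was -0.076, beside -0.021 over all tested genes. In the group 13 genes were above and 39 below 0, beside 5507 and 6791 of all tested genes. The range narrowed to -0.27 for Gins2 and 0.34 for Ung. The medians of the roles then ran from -0.16 (helicase activation) to 0.071 (cyclin E and E2F). The 95% confidence interval of the log2 fold change lay within -1 to 1 for 52 of 52 genes (83.1% of tested genes). It lay within -0.5 to 0.5, a 1.41-fold difference, for 43 (61.8%). With tamoxifen 1 included the same counts were 34 (51.2% of tested genes) and 8 (12.8%). The intervals thus narrowed over all tested genes as well, with a median half-width of 0.675 with tamoxifen 1 and 0.260 without it. The groups did not overlap in 3 genes, Ccne1 (higher in tamoxifen), Gins2 and Gins4 (both lower), beside 29.4% of tested genes (12.6% higher and 16.8% lower).

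**Figure D2:**
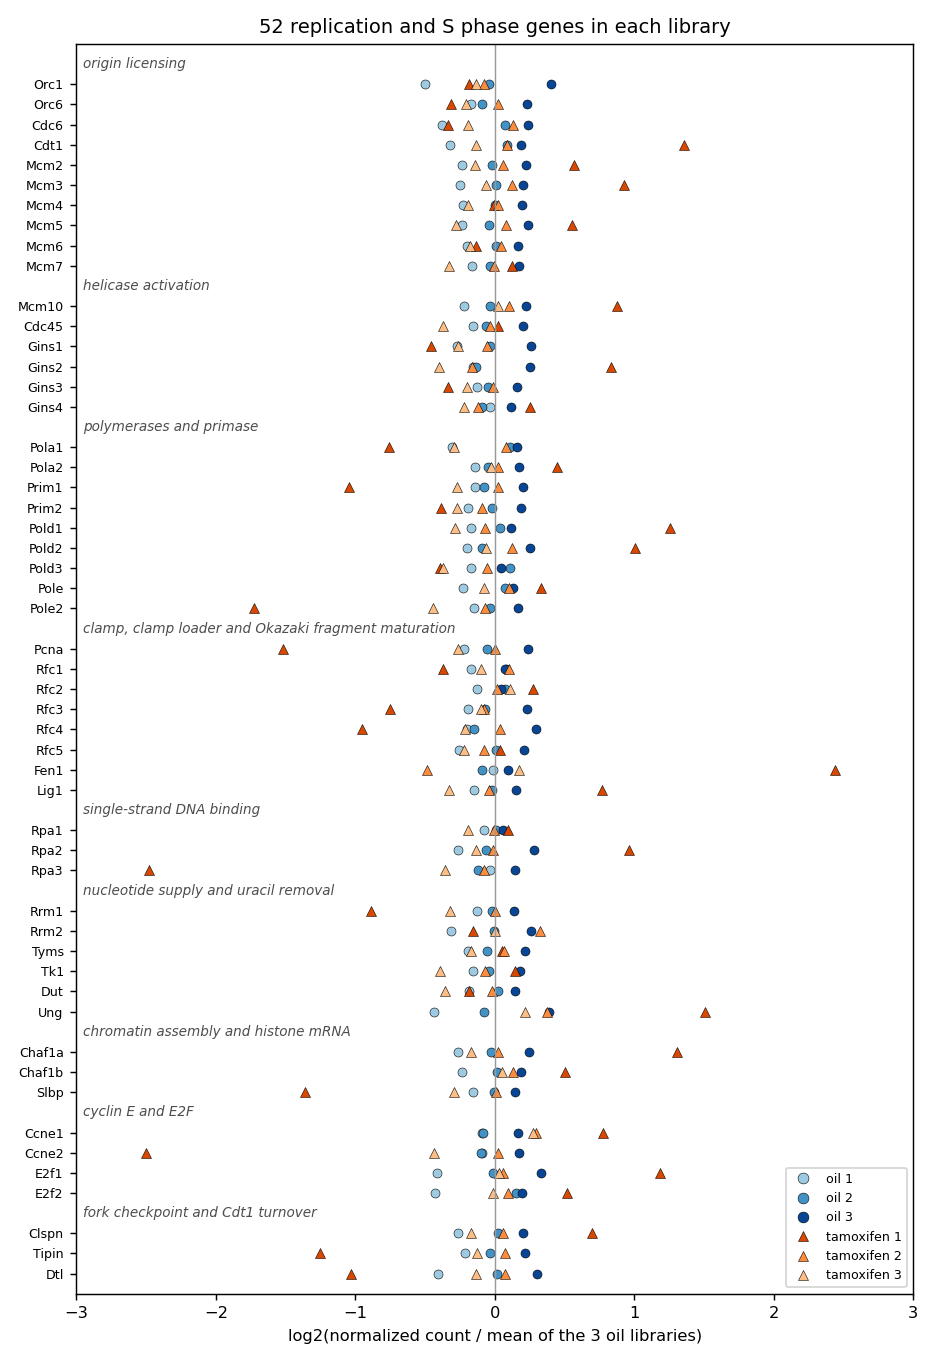
Normalized count of each of the 52 genes in each library relative to the mean of the 3 oil libraries (log2 scale), grouped by role. The points of tamoxifen 1 lie farthest out on either side, with Ccne2 and Rpa3 on the left and Fen1 on the right, while tamoxifen 2 lay within the range of the oil libraries for 46 of the 52 genes.

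The licensing genes included the 6 subunits of the Mcm ring, which parted into 2 sets of 3 in tamoxifen 1. Mcm3 (ENSMUSG00000041859.10, chromosome 1, 20802968 to 20820312, minus strand, GRCm38 here and below), a subunit of the replicative helicase ring, had 10729, 12851 and 14669.9 in oil and 24183, 13914 and 12181 in tamoxifen. The value of tamoxifen 1 exceeded all others, and tamoxifen 2 and 3 lay between the lowest and the highest oil library. The log2 fold change of Mcm3 was 0.34 (SE 0.28, unadjusted p = 0.273) in the 6 libraries and 0.042 (SE 0.13, unadjusted p = 0.748) without tamoxifen 1. Mcm2, another ring subunit, had 7908, 9208 and 10869 in oil and 13860.5, 9716 and 8455 in tamoxifen. Mcm5, also of the ring, had 9864, 11285 and 13747 in oil and 17066, 12281 and 9573 in tamoxifen. Tamoxifen 1 was the highest library for both, as for Mcm3, and tamoxifen 3 was the lowest for Mcm5. The other ring subunits differed from these in tamoxifen 1. Mcm4 had 7014, 8198 and 9415 in oil and 8172, 8335 and 7185 in tamoxifen. For Mcm6 the values were 12659, 14664 and 16370.0 in oil and 13278, 14996 and 12882 in tamoxifen, and for Mcm7 they were 7948, 8695 and 10031 in oil and 9680.0, 8865 and 7081 in tamoxifen. In these 3 genes tamoxifen 1 lay inside the range of the oil libraries, and tamoxifen 3 was the lowest library for Mcm7. Mcm7 had the smallest p of the role without tamoxifen 1, a log2 fold change of -0.16 (SE 0.12, unadjusted p = 0.219).

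The loading factors Cdt1 and Cdc6 differed from each other in tamoxifen 1. Cdt1 (ENSMUSG00000006585.3, chromosome 8, 122568015 to 122573554, plus strand), which delivers the Mcm ring to the origin, had 3660.3, 4853 and 5196 in oil and 11717, 4855 and 4156 in tamoxifen. Tamoxifen 1 was 2.56 times the oil mean and the other tamoxifen libraries lay within the oil range. Its log2 fold change of 0.45 in the 6 libraries became -0.0087 without tamoxifen 1. Cdc6, the ATPase that acts with Cdt1, had 1698, 2320.3 and 2608 in oil and 1751, 2421 and 1932 in tamoxifen, with all 3 tamoxifen libraries inside the oil range. The remaining licensing genes, Orc1 and Orc6 of the origin recognition complex, had log2 fold changes of -0.087 and -0.15. Orc1 was the most variable of the 52 genes among oil libraries, with a coefficient of variation of 30.8%.

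Of the 6 helicase activation genes, 2 had log2 fold changes above 0 and 4 below, and without tamoxifen 1 these counts were 1 and 5. Cdc45 (ENSMUSG00000000028.15, chromosome 16, 18780447 to 18811987, minus strand), which joins the Mcm ring to form the active helicase, had 1443, 1539 and 1852 in oil and 1637, 1576 and 1247 in tamoxifen, with tamoxifen 3 lowest and the other libraries mixed. Mcm10, an initiation factor that binds the activated helicase, had 1120.1, 1274 and 1524 in oil and 2398, 1404 and 1327 in tamoxifen, and a log2 fold change of 0.35 (SE 0.27, unadjusted p = 0.236). Its difference rested on tamoxifen 1, since the log2 fold change without it was 0.075. Gins2, a GINS subunit, had 637, 647 and 844 in oil and 1265, 632 and 537 in tamoxifen. Tamoxifen 1 was the highest library and tamoxifen 2 and 3 were the lowest, so the log2 fold change was 0.10 with tamoxifen 1 and -0.27 (SE 0.14, unadjusted p = 0.0849) without it. Of the exon bases of Gins2, 67.3% are shared with Gse1 on the opposite strand, and the strand setting of the counting is not given in the sources used here, so reads of the pair cannot be told apart. For Gins4 the values were 1329, 1278 and 1474 in oil and 1624, 1254 and 1168 in tamoxifen, with the same placement of the tamoxifen libraries as in Gins2. Gins1 and Gins3 had log2 fold changes of -0.24 and -0.18.

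Among polymerase and primase genes, tamoxifen 1 was highest for some subunits and lowest for others. Pold1 (ENSMUSG00000038644.14, chromosome 7, 44532746 to 44548849, minus strand), the catalytic subunit of polymerase delta, had 3526, 4082 and 4312 in oil and 9504, 3787 and 3262 in tamoxifen. Tamoxifen 1 was 2.39 times the oil mean, and tamoxifen 3 was the lowest library. Pole2 (ENSMUSG00000020974.6, chromosome 12, 69201773 to 69228195, minus strand), an accessory subunit of polymerase epsilon, had 1018, 1103 and 1268 in oil and 341, 1075 and 829 in tamoxifen. Here tamoxifen 1 was the lowest library, at 0.302 times the oil mean, followed by tamoxifen 3, and tamoxifen 2 lay within the oil range. The log2 fold change of Pole2 was -0.74 (SE 0.42, unadjusted p = 0.122) in the 6 libraries and -0.25 (SE 0.13, unadjusted p = 0.0852) without tamoxifen 1, the smallest p of the role in both. The other 7 genes of the role, Pola1, Pola2, Prim1, Prim2, Pold2, Pold3 and Pole, had log2 fold changes from -0.42 (Prim1, the catalytic primase subunit) to 0.37 (Pold2) in the 6 libraries and from -0.21 (Pold3) to 0.044 (Pold2) without tamoxifen 1.

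The sliding clamp gene Pcna was the most highly expressed of the group per length. Pcna (ENSMUSG00000027342.14, chromosome 2, 132249162 to 132253314, minus strand), the ring that tethers polymerases to DNA, had 8278, 9249 and 11364 in oil and 3360.0, 9635 and 8026 in tamoxifen. Tamoxifen 1 was at 0.349 times the oil mean, tamoxifen 3 was just below the lowest oil library and tamoxifen 2 lay within the oil range. The log2 fold change of Pcna was -0.58 (SE 0.40, unadjusted p = 0.19), and -0.12 (SE 0.13, unadjusted p = 0.394) without tamoxifen 1, with a 95% confidence interval of -0.42 to 0.18. Lig1, the ligase that seals Okazaki fragments, had 5323, 5819 and 6543 in oil and 10052, 5737 and 4702 in tamoxifen, with tamoxifen 1 highest and tamoxifen 3 lowest. Fen1, the flap nuclease that trims those fragments, had only 22.5, 21.2 and 24.1 in oil and 123, 16.2 and 25.5 in tamoxifen. Since 84.2% of the Fen1 exon bases are shared with Tmem258 and Gm10143 on the opposite strand, its level is uncertain. The clamp loader genes Rfc1 to Rfc5 had log2 fold changes from -0.36 (Rfc4) to 0.14 (Rfc2) with tamoxifen 1 and from -0.14 (Rfc5) to 0.065 (Rfc2) without it.

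The 3 subunits of replication protein A, which coats single-stranded DNA, differed from one another in tamoxifen 1. Rpa1 (ENSMUSG00000000751.13, chromosome 11, 75298166 to 75348324, minus strand), the large subunit, had 7092, 7530.0 and 7795 in oil and 7965, 7431 and 6528 in tamoxifen, and was the least variable of the 52 genes among oil libraries, with a coefficient of variation of 4.75%. Rpa2, the middle subunit, had 1459.6, 1677 and 2126 in oil and 3421, 1737 and 1595 in tamoxifen. Rpa3 (ENSMUSG00000012483.4, chromosome 6, 8255936 to 8259173, minus strand), the small subunit, had 730.3, 691 and 827 in oil and 134, 709 and 584 in tamoxifen. Tamoxifen 1 was therefore the highest library for Rpa1 and Rpa2 and by far the lowest for Rpa3, at 0.179 times the oil mean. The log2 fold change of Rpa3 was -0.97 (SE 0.61, unadjusted p = 0.158) in the 6 libraries, and -0.22 (SE 0.12, unadjusted p = 0.105) without tamoxifen 1.

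Of the nucleotide genes, Ung had the largest log2 fold change with and without tamoxifen 1. Rrm2, the regulated small subunit of ribonucleotide reductase, had 4081, 5074 and 6089 in oil and 4552, 6365 and 5081 in tamoxifen, with tamoxifen 2 highest and the remaining tamoxifen libraries in the oil range. Rrm1, the large subunit, had 8143, 8771 and 9764 in oil and 4798, 8906 and 7125 in tamoxifen. Tamoxifen 1 and 3 lay below every oil library for Rrm1, which had a log2 fold change of -0.40 (SE 0.24, unadjusted p = 0.147) in the 6 libraries. Thymidylate synthase, encoded by Tyms, had 2170.1, 2388 and 2883 in oil and 2570.2, 2592 and 2203 in tamoxifen, with the groups interleaved. Thymidine kinase Tk1 had 1873, 2021 and 2356 in oil and 2299, 1981 and 1583 in tamoxifen, and a log2 fold change of -0.23 (SE 0.12, unadjusted p = 0.0939) without tamoxifen 1. Ung (ENSMUSG00000029591.14, chromosome 5, 114130386 to 114139323, plus strand), the glycosylase that removes uracil from DNA, had 541, 693 and 956 in oil and 2078, 948 and 849 in tamoxifen. Oil 1 was the lowest library and tamoxifen 1 the highest, while tamoxifen 2 and 3 lay below oil 3. The log2 fold change of Ung was 0.74 (SE 0.39, unadjusted p = 0.102) in the 6 libraries and 0.34 (SE 0.20, unadjusted p = 0.12) without tamoxifen 1. Dut, which hydrolyzes dUTP, had log2 fold changes of -0.18 with and -0.18 without tamoxifen 1.

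The 3 genes of chromatin assembly and histone mRNA did not move together. Slbp (ENSMUSG00000004642.13, chromosome 5, 33634952 to 33652574, minus strand), which binds the stem-loop of histone mRNAs, had 1982, 2199.7 and 2446 in oil and 859, 2218 and 1802 in tamoxifen. Tamoxifen 1 was at 0.389 times the oil mean and tamoxifen 3 was also below the oil libraries. Chaf1b, a subunit of chromatin assembly factor 1, had 2152, 2556 and 2885 in oil and 3589, 2774 and 2628 in tamoxifen, with tamoxifen 1 highest and the others inside the oil range. Chaf1a, its large subunit, was at 2.48 times the oil mean in tamoxifen 1, and 52.5% of its exon bases are shared with Ubxn6 on the opposite strand.

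Cyclin E1 was the only gene of the group with all tamoxifen libraries above all oil libraries. Ccne1 (ENSMUSG00000002068.16, chromosome 7, 38097984 to 38107534, minus strand), a cyclin that activates Cdk2 at the entry into S phase, had 346, 346 and 412 in oil and 630.1, 452 and 445 in tamoxifen, or 368 ± 38.2 (SD, n = 3) and 509 ± 105 (SD, n = 3). Even the lowest tamoxifen library exceeded the highest oil library. The log2 fold change of Ccne1 was 0.45 (SE 0.21, unadjusted p = 0.0663), adjusted p = 0.666 by limma, and 0.29 (SE 0.12, unadjusted p = 0.0412), adjusted p = 0.393, without tamoxifen 1. Since 7.86% of tested genes had all tamoxifen libraries above all oil libraries, 1 gene in 52 was not more than the background. Ccne2, the paralogous cyclin E2, had 584, 582 and 702 in oil and 109.9, 633 and 459 in tamoxifen, with tamoxifen 1 at 0.177 times the oil mean and tamoxifen 3 below the oil range. Of its exon bases 17.4% are shared with Ints8 on the opposite strand. The cyclin E pair thus had log2 fold changes of opposite sign, 0.29 and -0.20 without tamoxifen 1, of which neither passed the test after adjustment. E2f1, an activator of S phase genes, had 714, 944 and 1199.7 in oil and 2166, 990.1 and 973 in tamoxifen, and E2f2, a close relative, had 999, 1500.2 and 1542 in oil and 1925, 1439.7 and 1332 in tamoxifen. For both factors tamoxifen 1 was highest and the remaining tamoxifen libraries lay inside the oil range.

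The fork checkpoint and Cdt1 turnover genes also moved in both directions in tamoxifen 1. Clspn, the adaptor that passes the fork stress signal to Chk1, had 1591, 1938 and 2198 in oil and 3090.3, 1989 and 1699.7 in tamoxifen. Tipin, a partner of Timeless at the fork, had 1721, 1947 and 2317 in oil and 837, 2100.4 and 1825 in tamoxifen. Dtl (ENSMUSG00000037474.13, chromosome 1, 191537356 to 191575544, minus strand), which directs the ubiquitin ligase that destroys Cdt1, had 2762, 3702 and 4528 in oil and 1791, 3849 and 3329 in tamoxifen. Tamoxifen 1 was the highest library for Clspn and the lowest for Tipin and Dtl. In all 3 genes tamoxifen 2 and 3 lay inside the oil range, and the log2 fold changes without tamoxifen 1 were between -0.041 and -0.0045.

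**Figure D3:**
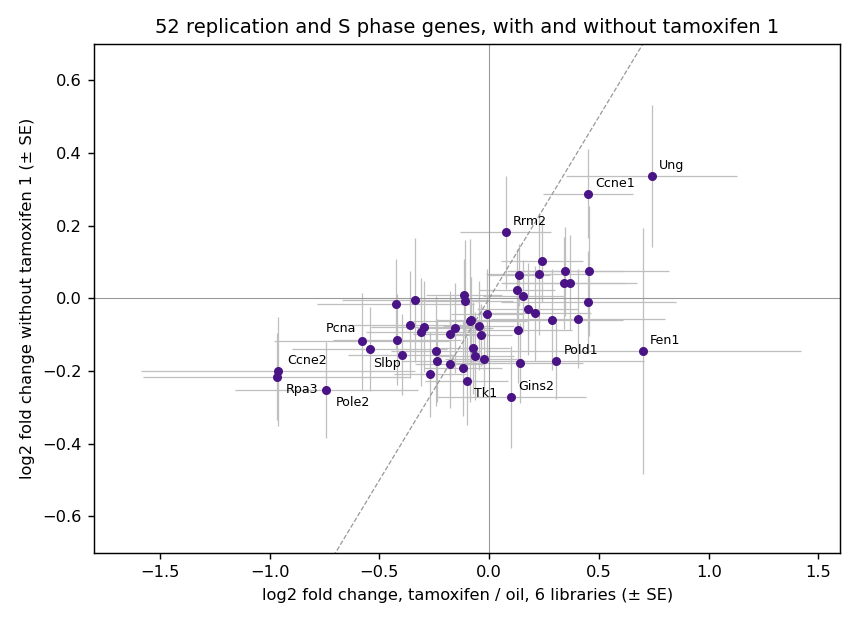
Log2 fold change (tamoxifen over oil, limma) of each of the 52 genes with all 6 libraries (horizontal) and without tamoxifen 1 (vertical), with standard errors; the dashed line marks equal values. Leaving out tamoxifen 1 drew the points from -0.97 to 0.74 into -0.27 to 0.34.

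The oil mice differed among themselves in a direction shared by most of the genes. Oil 3 was the highest oil library for 49 of the 52 genes (37% of tested genes) and oil 1 the lowest for 48 (36.7%), and the order oil 1, oil 2, oil 3 held for 45 (21.6%). The exceptions to oil 1 as the lowest were Gins4, Fen1, Rpa3 and Ccne2, and the exceptions to oil 3 as the highest were Pold3, Rfc1 and Rfc2. The median ratio of oil 3 to oil 1 was 1.33, beside 1.01 over all tested genes. It was largest for Orc1 (1.87), Ung (1.77), E2f1 (1.68) and Dtl (1.64). Summed over the 52 genes, the level was 158368, 182648 and 208108 in the oil libraries and 213358, 188561 and 160694 in the tamoxifen libraries. The groups overlapped, and the lowest and highest library differed by a similar amount in each. Tamoxifen 2 exceeded tamoxifen 3 in 50 genes (56.5% of tested genes), with Rfc2 and Fen1 the exceptions. Tamoxifen 2 lay within the oil range for 46 genes (50.5%) and tamoxifen 3 for 27 (34.9%). Since the libraries of a group have no order, these ranks describe single mice, and the genes share each library's scaling.

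Tamoxifen 1 departed from the other libraries gene by gene and in both directions. It was the highest of the 6 libraries for 23 of the 52 genes (41.1% of tested genes) and the lowest for 18 (41.6%). Its log2 level minus the mean of the other 5 libraries ran from -2.41 (Ccne2) to 2.45 (Fen1), and 15 genes were more than 1 log2 unit away (34.3% of tested genes), 8 of them above and 7 below. The deviation moved with base composition. Across the 52 genes, Pearson's r with the GC content of the reference transcript was 0.85 and Spearman's rho was 0.87, as a description over genes that share 1 library. All 12 genes under 45% GC were below 0, with a median of -0.996, and 20 of the 21 genes at 50% GC or more were above 0, with a median of 0.66. Rpa3 and Ccne2, at 34.2% and 36.3% GC, had the lowest deviations. At the other end were Pold1, Pold2, E2f1 and Cdt1, with 57.8% to 61.0% GC and deviations above 1 and up to 1.38. Ung departed from the trend, with 48.3% GC and a deviation of 1.41. Over 12150 tested genes with a GC value, rho was 0.69. In the other 5 libraries the deviations over the 52 genes correlated with GC content the other way, with Pearson's r from -0.78 to -0.70, which includes the share of tamoxifen 1 in each reference mean. What gave tamoxifen 1 this profile was not tested.

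**Figure D4:**
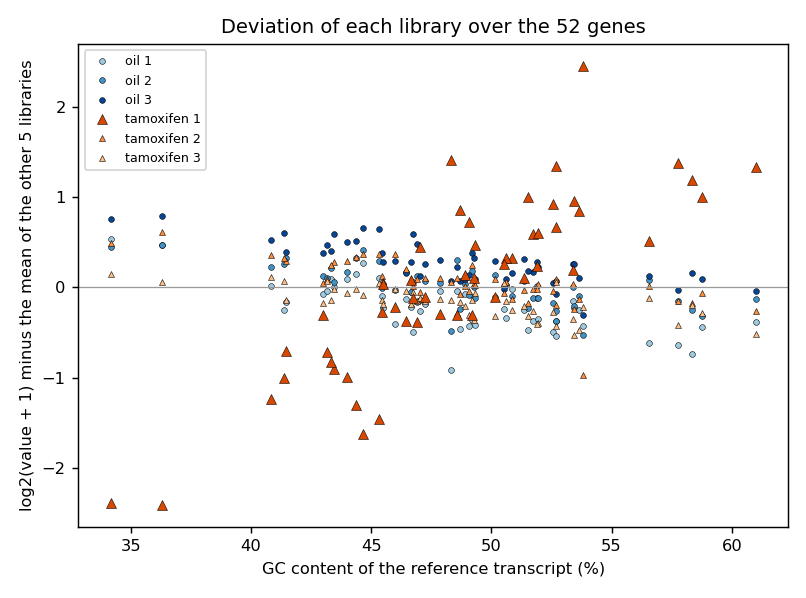
Deviation of each library from the mean of the other 5 (log2 scale) against GC content of the reference transcript (%) for the 52 genes. The triangles of tamoxifen 1 tend to rise with GC content, from -2.38 for Rpa3 (34.2% GC) to 1.33 for Pold1 (61.0% GC). Their lowest and highest points are -2.41 for Ccne2 (36.3% GC) and 2.45 for Fen1 (53.8% GC). The points of the other libraries lie between -0.97 and 0.79.

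Subunits of 1 complex showed the same departure when compared per kilobase of reference transcript. The 6 genes of the Mcm ring were close to each other in oil, from 2287 normalized counts per kilobase for Mcm4 to 3716 for Mcm3, and the ratio of the highest to the lowest subunit was 1.6, 1.64 and 1.63 in the oil libraries. In tamoxifen it was 3.10 in tamoxifen 1 and 1.75 and 1.77 in tamoxifen 2 and 3. For replication protein A the ratio was 1.73, 1.6 and 1.31 in oil and 9.59, 1.53 and 1.5 in tamoxifen. For polymerase alpha with primase it was 1.66, 1.80 and 1.70 in oil and 4.01, 1.64 and 1.72 in tamoxifen, and for polymerase delta 2.12, 2.02 and 2.23 in oil and 6.66, 2.10 and 2.25 in tamoxifen. Tamoxifen 1 thus stood outside the other 5 libraries for each of these 4 complexes, and also for the clamp loader, with 7.67 against 3.31 to 4.34. GINS was an exception, with 6.15 in tamoxifen 1 and 5.05 to 6.29 in the others, and in CAF-1 the ratio was lower in tamoxifen 1, at 2.35 against 3.95 to 4.79. Pcna was the most highly expressed gene of the group per kilobase in oil, at 6344, and the lowest apart from Fen1 were Orc1 at 90.8, Gins2 at 182 and Ccne1 at 184.

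Other genes of the pathway gave few calls, which differed between tests. Of 39 other replication genes, all tested, limma gave 0 at an adjusted and 0 at an unadjusted p under 0.05 (0% and 4.47% of tested genes). The counts were also 0 and 0 by edgeR (0 and 4.81% of its genes) and by DESeq2 (0.464% and 3.65% of the genes with a value). With library weights 2 passed the adjusted threshold (6.36% of tested genes). Without tamoxifen 1, limma gave 0 at the adjusted and 4 at the unadjusted threshold (12.1% of tested genes), Dctd and Samhd1 with log2 fold changes above 0 and Rnaseh2a and Rnaseh2c below. The list had a median log2 fold change of -0.097 in the 6 libraries and -0.051 without tamoxifen 1. In the 6 libraries the lowest p in this list belonged to Pole4, a polymerase epsilon subunit, with 1435, 1477 and 1707 in oil and 1123, 1384 and 1289 in tamoxifen, and to Rnaseh2b, a subunit of ribonuclease H2, with 1906, 1913 and 2097 in oil and 1462, 1933 and 1595 in tamoxifen. Pole4 was lower in all tamoxifen libraries than in all oil libraries, and Rnaseh2b was below every oil library in tamoxifen 1 and 3. Of 29 E2F, Rb and CDK regulators, 28 were tested and the median was 0.011. limma and edgeR gave 0 of them at an adjusted p under 0.05 and 2 at an unadjusted p under 0.05 (4.47% and 4.81% of the genes each tested), and DESeq2 gave 1 and 1 (0.464% and 3.65% of the genes with a value). Without tamoxifen 1, limma and edgeR called 1, Cdkn1a (0.333% and 0.364% of the genes each tested), and DESeq2 called 3, Ccna2, Cdk6 and Cdkn1a (1.82%). With library weights 4 were called, these 3 and Cdkn2c (6.36% of tested genes). The gene called by DESeq2 in the 6 libraries was Cdkn1a, the p53 target that inhibits cyclin-dependent kinases, which had 603, 487 and 614 in oil and 2796, 1754 and 1898 in tamoxifen. All tamoxifen libraries exceeded all oil libraries, with a log2 fold change of 1.90 (SE 0.22, adjusted p = 0.266 by limma) that became 1.69 (SE 0.12, adjusted p = 0.00118) without tamoxifen 1. Ccna2, cyclin A2 of S phase and G2, had 4687, 5025 and 4956 in oil and 3784, 4226 and 3013 in tamoxifen, with every tamoxifen library below every oil library, a log2 fold change of -0.43 (SE 0.17, unadjusted p = 0.0386) and an adjusted p of 0.666 by limma. With library weights its log2 fold change was -0.60 (adjusted p = 0.00813), where limma under the other alternatives, and edgeR and DESeq2 on the 6 libraries, gave adjusted p-values for Ccna2 of 0.192 to 0.861. Cdk6, a kinase of G1, had 4558, 5036 and 5497 in oil and 2878, 5967 and 7669 in tamoxifen. Tamoxifen 1 was its lowest library and tamoxifen 2 and 3 were its highest, so the log2 fold change was 0.021 in the 6 libraries and 0.43 (SE 0.12, adjusted p = 0.189 by limma) without tamoxifen 1.

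The 30 mitosis genes had a median log2 fold change of -0.40, with 26 below 0 (6340 of all 12298 tested genes). By limma 9 had an unadjusted p under 0.05 (4.47% of tested genes) and 0 an adjusted p under 0.05 (0%). The counts were 7 (4.81% of its genes) and 0 (0 of all its genes) by edgeR. By DESeq2 they were 9 (3.65% of the genes with a value) and 0 (0.464%). Without tamoxifen 1 the median was -0.35, with 30 of 30 below 0 (6791 of all 12298 tested genes). In that fit 24 mitosis genes had an unadjusted p under 0.05 by limma (12.1% of tested genes). After adjustment limma gave 0 (0.333% of tested genes) and DESeq2 gave 2 (1.82% of the genes with a value). Without any 1 of oil 1, oil 2, oil 3 or tamoxifen 3 the count at an unadjusted p under 0.05 was 0. Over all 12298 tested genes these fits gave 324, 225, 252 and 408, in that order. Without tamoxifen 2 the count of mitosis genes was 18 (8.72% of tested genes). The GC correction gave a median of -0.16, and library weights gave 21 genes after adjustment (6.36% of tested genes). Kif11, a kinesin of the spindle, had 5443, 5564 and 5947 in oil and 3677, 4996 and 3832 in tamoxifen, and Prc1, a spindle midzone protein, had 1821, 1905 and 1994 in oil and 1509, 1559 and 1236 in tamoxifen. In both genes all tamoxifen libraries lay below all oil libraries. The replication and S phase genes had 0 genes lower in all tamoxifen libraries than in all oil libraries (9.69% of tested genes), where the mitosis genes had 15. Whether the lists differ was not tested. Mki67, a proliferation marker, had 13538, 18788 and 16829 in oil and 15728, 16644 and 14874 in tamoxifen, with the tamoxifen libraries inside the oil range.

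**Figure D5:**
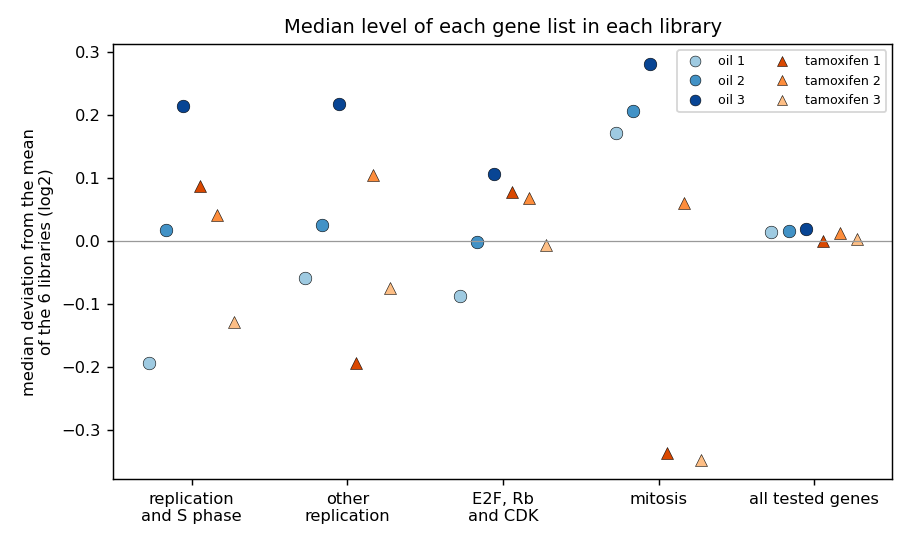
Median deviation of each gene list in each library from the mean of the 6 libraries (log2 scale). The replication and S phase genes ran from -0.19 in oil 1 to 0.21 in oil 3 with the tamoxifen libraries between, whereas all 3 oil libraries lay above the tamoxifen libraries for the mitosis genes.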

How the data were processed

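Per the study's methods, RNA from sorted cells was sequenced as paired reads and processed by the authors with a STAR and DESeq2 pipeline; the submitters' processing notes name mm10 as the build, and annotation, strand setting and filters are not given in the sources used here. The deposited values are a normalized signal, gene counts divided by 1 size factor per library. In every library 100% of values above 0 were whole multiples of the value of 1 read (tolerance 0.01), so whole reads were recovered. Of 55450 rows, 1832 had no gene name (0.0400% to 0.0614% of reads) and were left out.

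The test was limma 3.58.1 (R 4.3.3; lmFit, eBayes with trend) on log2(value + 1) for the 12298 named genes that reached a value of 10 in 3 or more libraries, two-sided and adjusted by Benjamini-Hochberg over all of them at a threshold of 0.05. Fold changes on this scale understate those of low genes. edgeR 4.0.16 and DESeq2 1.42.0 on recovered reads were alternatives; with all 6 libraries they called 0 and 71 genes, where limma called 0. Without tamoxifen 1, limma kept the tested genes. In that fit edgeR tested 12628 genes in place of 12340, and DESeq2 tested 23788 in place of 24247. Other alternatives were pseudocounts of 0.5 and 5, other filters (none, or 1 CPM in 3 libraries), TMM and upper-quartile scaling, a replicate block, a GC correction (loess span 0.3), library weights and each library left out. Coordinates, length and GC content came from GENCODE vM21 (GRCm38; 51944 of 53618 names matched), using the transcript with the longest coding sequence. Scripts were tested on simulated data. The genes and lists were chosen with earlier results of these data known. Genes given per library were the highest level and the lowest p of each role, the 3 highest and 3 lowest log2 fold changes, and a set of well-known members; Orc1, Orc6 and others were summarised, and Gins4, Cdk6, Prtn3, Ctsg, Trac, Cdkn2c, Ngp, Camp, Ltf, Cxcr2, Mmp8, Cd79b, Dctd, Samhd1, Rnaseh2a and Rnaseh2c were added after their values were seen.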

Additional observations from a re-analysis of the deposited data

How the results depend on the processing

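None of the 52 genes passed an adjusted p of 0.05 under any alternative run, with or without tamoxifen 1; the smallest adjusted p was 0.0871, with library weights. Over all genes, DESeq2 called 71, the GC correction 2 and library weights 782, and leaving out 1 library gave 0 to 41, the 41 without tamoxifen 1. At an unadjusted p under 0.05, DESeq2 gave 1 gene of the group (3.65% of the genes with a value). The GC correction gave 1, Ccne1 (793 of the 12298 tested genes). Library weights, which gave tamoxifen 1 a weight of 0.0377, gave 12 (1 higher and 11 lower), beside 23.4% of all tested genes. Leaving out 1 library gave 0 to 2, beside 225 to 1488 of all tested genes. Genes whose groups did not overlap numbered 1 to 15 with 1 library left out, 15 of them without tamoxifen 2, beside 23.9% to 37% of all tested genes (37% without tamoxifen 2). The median of the E2F, Rb and CDK regulators was 0.097 with the GC correction, alone or with the replicate block, and from -0.090 to 0.063 with 1 library left out; that of the mitosis genes was -0.16 with the GC correction, alone or with the block. The mitosis genes at an unadjusted p under 0.05 numbered 5 with the block and 3 with the GC correction and block. Over all 12298 tested genes these settings gave 426 and 620. Library weights gave 29 mitosis genes (23.4% of all tested genes) and 21 after adjustment (6.36%). With 1 library left out the mitosis genes numbered 0 to 24, beside 225 to 1488 of all tested genes.

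Replicate numbers were not used to pair libraries, because the mice were separate and the deviations of same-numbered libraries correlated at -0.024, 0.061 and -0.15. With the replicate block, 0 genes of the group and 0 of all genes passed.

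Signs of log2 fold changes differed as follows, all short of an adjusted p of 0.05, and what caused them was not tested. Library weights gave log2 fold changes of -0.077 for Cdt1, -0.075 for Mcm2, -0.00539 for Mcm3, -0.17 for Mcm5, -0.30 for Gins2, -0.23 for Pold1, -0.24 for Lig1 and -0.10 for Clspn. Upper-quartile scaling, which moved the median of all genes from -0.017 to 0.051, gave 0.019 for Mcm4, 0.00466 for Mcm7, 0.032 for Rpa1, 0.060 for Tyms and 0.022 for Mki67. The GC correction, with or without the block, gave 0.14 for Mcm4, 0.019 for Mcm6, -0.025 for Gins2, -0.0380 for Pold1, 0.12 for Tyms, 0.031 for Tipin, 0.086 for Dtl and 0.088 for Mki67. edgeR gave 9.87e-05 for Tyms. With 1 library left out, log2 fold changes ran from -0.29 to 0.022 for Cdc6, -0.0087 to 0.74 for Cdt1, -0.029 to 0.33 for Mcm2, -0.16 to 0.056 for Mcm4, -0.088 to 0.33 for Mcm5, -0.18 to 0.0068 for Mcm6, -0.16 to 0.066 for Mcm7, -0.19 to 0.00381 for Cdc45, -0.27 to 0.35 for Gins2, -0.17 to 0.60 for Pold1, -0.15 to 1.28 for Fen1, -0.18 to 0.37 for Lig1, -0.10 to 0.043 for Rpa1, -0.074 to 0.21 for Rrm2, -0.10 to 0.11 for Tyms, -0.23 to 0.042 for Tk1, -0.041 to 0.39 for Clspn and -0.18 to 0.06 for Mki67. Fen1 had only 16.2 to 123 normalized counts per library, so its log2 fold changes rest on few reads. What limits its level was not tested.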
